A study of Mus musculus with 12 samples.

Results

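The 9 genes described here encode subunits of the transcription factor AP-1 and proteins that are switched on with it: Fos, Fosb, Jun, Junb, Jund, Atf3, Dusp1, Ier2 and Zfp36. They were taken by symbol from the 48709 rows of the deposited count table, where each had 1 row, and all 9 passed the filter on low counts in every comparison. RNA was sequenced from thymic invariant natural killer T cells (iNKT cells, which recognise lipids on CD1d) of C57BL/6J mice aged 7 weeks, in 12 libraries and 4 groups of 3. The groups were miR-155KI NK1.1+, WT NK1.1+, miR-155KI NK1.1- and WT NK1.1-. The miR-155KI mice carried 2 copies of a miR-155 knock-in allele at Rosa26 and CD4Cre, which acts in all cells that have passed the CD4+CD8+ stage and so also in conventional T cells. The WT mice were littermates with the knock-in allele and without CD4Cre, so the knock-in allele was in every library. Cells were depleted of CD8+ cells and sorted on TCRβ, CD1d tetramer and NK1.1. This separates NK1.1- cells (stages 1 and 2) from mature NK1.1+ cells (stage 3). By the study's account, stage 2 holds immature precursors of iNKT1 cells and also differentiated iNKT2 and iNKT17 cells, and stage 3 is largely iNKT1 cells. These subsets make mainly IFN-γ (iNKT1), IL-4 (iNKT2) and IL-17 (iNKT17). The study reports more iNKT2 and fewer iNKT1 and iNKT17 cells in miR-155KI mice. The study compared the genotypes in each pool to look for targets of miR-155. The pools within a genotype differ in both maturation and subset, which cannot be told apart here.

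AP-1 is a dimer of leucine zipper proteins, formed by JUN proteins with each other or with FOS or ATF proteins. Its genes are immediate early genes: signals through MAP kinases, from the T cell receptor, cytokines or stress, switch on their transcription within minutes and without new protein, and both the mRNAs and the proteins are short-lived. Dusp1 and Zfp36 are part of the same wave and act as its brakes. Dusp1 encodes a phosphatase that inactivates MAP kinases, and Zfp36 encodes tristetraprolin, a protein that binds AU-rich elements in 3′ UTRs and speeds the decay of those mRNAs. Genes of this kind are also known to respond to tissue dissociation and cell sorting.

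The libraries held between 12819476 and 20518257 counts. The row of the miR-155 host gene Mir155hg, which can take reads of the knock-in, lay between 97.3 and 146 CPM in miR-155KI libraries and between 9.74 and 13.4 CPM in WT libraries. Summed levels of 9 T cell and iNKT cell markers were 5448 to 7534 CPM in NK1.1+ libraries and 3961 to 4350 CPM in NK1.1- libraries. Most of that difference was Il2rb. Its means in miR-155KI and WT were 2118 and 2342 CPM in NK1.1+, against 516 and 718 CPM in NK1.1-. Cd4, Cd5 and Zbtb16 had lower means in NK1.1+ in both genotypes, and the other markers higher ones. Xist, expressed from the inactive X chromosome of females, was between 8.32 and 36.7 CPM in all 6 miR-155KI libraries and at 11.7 and 12.3 CPM in replicate 1 of the WT pools, but 134 to 233 CPM in the other 4 WT libraries, replicates 2 and 3. Genotype and sex-linked RNA therefore moved together in all but 2 WT libraries. Summed levels of 14 macrophage and monocyte markers were 360 to 1105 CPM in miR-155KI NK1.1+ libraries (highest in replicate 2) and 140 to 178 CPM in WT NK1.1+ libraries, against 148 to 198 CPM in miR-155KI NK1.1- and 129 to 265 CPM in WT NK1.1- libraries, and no marker of that list was at 0 throughout a group. The labels do not tie libraries to mice, and the study's methods speak of pooling biological replicates, so p-values measure only the spread between these libraries. In such bulk samples, fewer cells with a transcript and less of it per cell cannot be told apart.

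The sequences below show some of the elements that these genes are known for. RefSeq promoter entries (GRCm38.p6) matched 8 of the 9 genes, and the 250 bases before the start were searched on both strands for the core of the cyclic AMP response element, TGACG, through which CREB and ATF proteins act. It was present in 5 of the 8, in Fos (2 times), Fosb, Junb, Atf3 and Dusp1 (3 times), against 17.8% of all 32851 promoter entries. In the lines that follow, 60 bases around a match are given 5′ to 3′ on the strand of the gene, with the match in capitals. The matches shown begin 66, 60, 106, 7 and 143 bases before the start in Fos, Fosb, Junb, Atf3 and Dusp1. Fos is chr12:85473796-85473855 on the plus strand, and the minus strand entries are Fosb chr7:19310074-19310133, Junb chr8:84978823-84978882, Atf3 chr1:191183334-191183393 and Dusp1 chr17:26508582-26508641.
Fos promoter: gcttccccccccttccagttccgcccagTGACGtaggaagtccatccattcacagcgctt
Fosb promoter: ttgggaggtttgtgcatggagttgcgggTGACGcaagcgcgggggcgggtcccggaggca
Junb promoter: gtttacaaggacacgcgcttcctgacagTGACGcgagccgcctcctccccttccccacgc
Atf3 promoter: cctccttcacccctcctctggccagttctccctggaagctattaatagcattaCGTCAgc
Dusp1 promoter: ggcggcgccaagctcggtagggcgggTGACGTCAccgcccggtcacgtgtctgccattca
The Dusp1 window held the full palindrome TGACGTCA, which contains the core on both strands and was found in 1.55% of promoter entries, and the Atf3 window held the core on the other strand. The AP-1 site TGANTCA, which no stretch can match together with TGACG at the same start, was in 0 of the 8 entries and in 6.75% of all entries. Only this form was searched, so variants of the site with other letters or another length would be missed. A CArG box, the element bound by serum response factor, was within these 250 bases in Zfp36 alone among the 8 and in 1.47% of all entries. Bases further upstream were not searched, so absence here does not mean that Fos or another gene lacks the element. The Zfp36 match is shown for chr7:28379252-28379311 on the minus strand.
Zfp36 promoter: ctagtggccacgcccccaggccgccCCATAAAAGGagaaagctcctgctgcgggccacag
Positions are relative to the RefSeq start of each entry. For Atf3, Dusp1 and Zfp36 that start lies inside the GENCODE span of the gene given with its levels, which reaches to the start of a longer transcript. The Jund entry starts upstream of the GENCODE start of the gene and held none of these letters.

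In the 3′ UTRs of the GENCODE M21 transcripts, the heptamer TATTTAT, the centre of the AU-rich element that tristetraprolin binds, was found in 7 of the 9 genes, against 28.7% of 21028 genes with a 3′ UTR. Junb and Ier2 were the exceptions, and Dusp1 and Zfp36 had 3 copies each. The first copy in 3 of them is printed with its flanks to show the element, in capitals.
Fos 3′ UTR: gttttcaattTATTTATtaagatggat
Dusp1 3′ UTR: agctggtcctTATTTATttaacacccc
Zfp36 3′ UTR: gtgggcccttTATTTATgacgacttta
The microRNA that the knock-in expresses is shown with its seed, bases 2 to 8, in capitals (RefSeq, GRCm38.p6, chr16:84714143-84714165, plus strand).
mmu-miR-155-5p: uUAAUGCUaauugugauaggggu
Its perfect 7-base match AGCATTA was in the 3′ UTR of 0 of the 9 genes and of 8.82% of all genes. The 6-base core GCATTA occurred once each in Fos and Jun and in 20.5% of all genes. Fos is nonetheless on the study's own list of predicted targets, which was drawn up on the NK1.1- libraries, so its direction there is not independent evidence.

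The genes differed widely in level. Per kilobase of exon, Junb was the most abundant in every group, with means of 1626 ± 369 CPM per kb in miR-155KI NK1.1+ and 2202 ± 351 in WT NK1.1+ libraries, against 534 ± 118 in miR-155KI NK1.1- and 957 ± 279 in WT NK1.1- libraries (SD, n = 3 each). In both NK1.1+ groups Dusp1 came next and then Ier2, with 818 ± 265 and 595 ± 171 CPM per kb in miR-155KI NK1.1+ libraries, neighbours that did not differ beyond their spread. In WT NK1.1- libraries the order of these genes was the other way round, with Ier2 at 423 ± 117 and Dusp1 at 296 ± 44.7 CPM per kb. Fos, Zfp36 and Jun followed, and in WT NK1.1- libraries they lay within each other's spread at 134 ± 31.6, 114 ± 12.8 and 103 ± 18.1 CPM per kb. Jund, Fosb and Atf3 were the lowest in all groups, at most 65.1 ± 3.21 CPM per kb (Jund, WT NK1.1+). The 9 genes together took 0.752% to 1.27% of all counts in NK1.1+ libraries and 0.297% to 0.635% in NK1.1- libraries, and these ranges did not overlap.

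**Figure D1:**
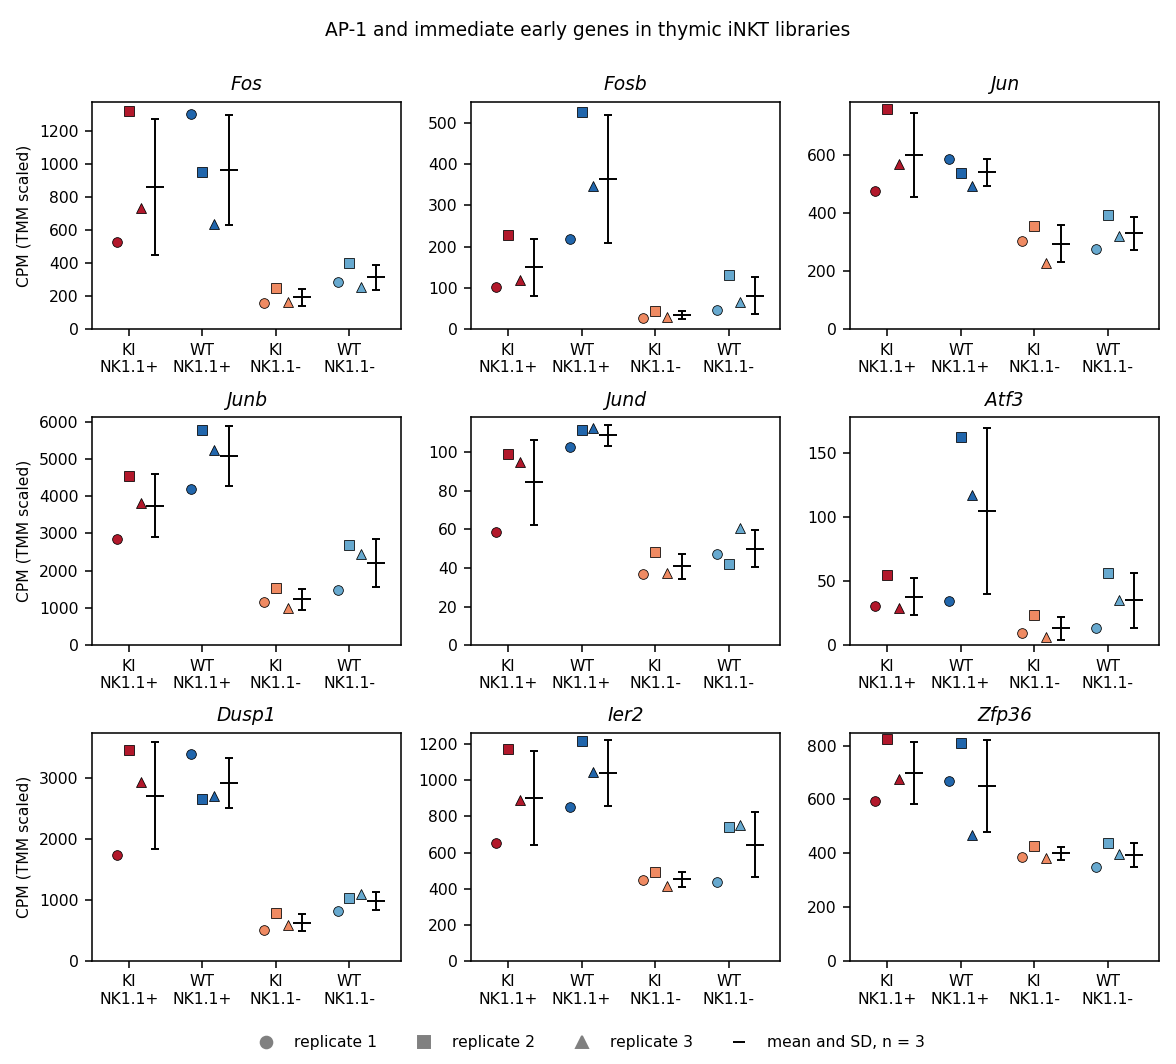
CPM (vertical axis, TMM scaled, from 0) of each of the 9 genes in the 12 libraries, by group, with symbols for the replicate number and the mean and SD (n = 3) at the right of each group. The means of the NK1.1+ groups lie above those of the NK1.1- groups in all panels, libraries of the pools overlap within a genotype for Atf3 in WT alone, and Atf3 in WT ranges from 34.8 to 163 CPM within NK1.1+.

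NK1.1+ cells had more mRNA of these genes than NK1.1- cells in both genotypes. By edgeR's quasi-likelihood test with Benjamini-Hochberg adjustment over all genes, 8 of 9 rose in NK1.1+ cells of miR-155KI mice, where 7.92% of all tested genes were called higher and 6.15% lower, and 6 of 9 rose in WT, where 9.89% were called higher and 10.9% lower. All 9 in miR-155KI and 8 in WT had every NK1.1+ library above every NK1.1- library, which held for 18.4% and 20.1% of tested genes. The median log2 fold change of the 9 was 1.5 in miR-155KI and 1.17 in WT, against 0.03 and 0.01 over all tested genes. Fold changes below are log2 values, NK1.1+ over NK1.1-, with their standard error.

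Fos, the prototype FOS protein, which needs a JUN partner to bind DNA, lies at chr12:85473890-85477273 on the plus strand (GRCm38; 4 exons). Its level was 530, 1320 and 733 CPM in the miR-155KI NK1.1+ libraries, against 163, 254 and 169 CPM in the miR-155KI NK1.1- libraries. In WT it was 1304, 951 and 641 CPM in NK1.1+ libraries, against 290, 399 and 257 CPM in NK1.1- libraries. The pools were apart in both genotypes, and within WT NK1.1+ the libraries spanned a 2.04-fold range. Fos rose by 2.10 ± 0.30 in miR-155KI (adjusted p = 0.00161) and by 1.57 ± 0.27 in WT (adjusted p = 0.00518).

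Fosb, a close relative of Fos (chr7:19302696-19310051, minus strand), had the largest ratio between the pools in WT and much lower levels. It was at 104, 229 and 118 CPM in miR-155KI NK1.1+ libraries, against 27.0, 44.9 and 30.8 CPM in miR-155KI NK1.1- libraries. The WT libraries held 220, 526 and 346 CPM in NK1.1+, against 47.6, 131 and 66.6 CPM in NK1.1-. Replicate 1 was the lowest library in each of the 4 groups. The change was 2.09 ± 0.30 in miR-155KI (adjusted p = 0.00163) and 2.13 ± 0.56 in WT, which did not pass the threshold (adjusted p = 0.0617) although the WT pools did not overlap.

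Jun, the main partner of FOS proteins (chr4:95049034-95052222, minus strand, 1 exon), differed less. It was at 475, 756 and 569 CPM in miR-155KI NK1.1+ libraries, against 303, 354 and 229 CPM in miR-155KI NK1.1- libraries. In WT the values were 587, 539 and 494 CPM in NK1.1+, against 277, 392 and 321 CPM in NK1.1-. Neither genotype had overlapping pools. The rise was 0.98 ± 0.19 in miR-155KI (adjusted p = 0.00799) and 0.67 ± 0.15 in WT (adjusted p = 0.00701).

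Junb, a JUN protein that often stands against c-Jun and that supports T cell effector programs (chr8:84974484-84978718, minus strand, 1 exon), had the highest level of the 9. Its libraries held 2854, 4545 and 3822 CPM in miR-155KI NK1.1+, against 1147, 1532 and 1005 CPM in miR-155KI NK1.1-. WT libraries held 4187, 5772 and 5243 CPM in NK1.1+, against 1476, 2689 and 2442 CPM in NK1.1-. Every NK1.1+ library was above 2689 CPM. Junb rose by 1.57 ± 0.19 in miR-155KI (adjusted p = 0.000633) and by 1.17 ± 0.23 in WT (adjusted p = 0.00525).

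Jund, the JUN gene that is least dependent on stimulation (chr8:70698949-70700616, plus strand, 1 exon), was among the lowest. It was at 58.7, 99.0 and 94.9 CPM in miR-155KI NK1.1+ libraries, against 36.7, 48.2 and 37.4 CPM in miR-155KI NK1.1- libraries. In WT it was at 103, 111 and 112 CPM in NK1.1+ libraries, against 47.1, 42.0 and 60.8 CPM in NK1.1- libraries. The rise was 1.01 ± 0.21 in miR-155KI (adjusted p = 0.0112) and 1.09 ± 0.15 in WT (adjusted p = 0.000374). The miR-155KI call was lost without NK1.1- replicate 1 (adjusted p = 0.0656) or replicate 3 (adjusted p = 0.0699).

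Atf3, a stress-induced ATF protein that pairs with JUN proteins (chr1:191170296-191218039, minus strand), was the least even of the 9. It was at 30.5, 54.7 and 28.7 CPM in miR-155KI NK1.1+ libraries, against 9.11, 23.7 and 6.37 CPM in miR-155KI NK1.1- libraries. WT NK1.1+ libraries held 34.8, 163 and 117 CPM, against 13.4, 56.3 and 35.7 CPM in WT NK1.1- libraries. The WT pools overlapped, since WT NK1.1+ replicate 1 lay below WT NK1.1- replicates 2 and 3. The changes of 1.5 ± 0.47 in miR-155KI (adjusted p = 0.0595) and 1.56 ± 0.83 in WT (adjusted p = 0.284) did not pass the threshold.

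Dusp1, which encodes a nuclear phosphatase of p38, JNK and ERK (chr17:26505590-26562128, minus strand), had the smallest p of the 9 in both genotypes. Its level was 1742, 3454 and 2930 CPM in miR-155KI NK1.1+ libraries, against 502, 779 and 593 CPM in miR-155KI NK1.1- libraries. In WT it was 3390, 2657 and 2709 CPM in NK1.1+ libraries, against 812, 1038 and 1091 CPM in NK1.1- libraries. Each NK1.1+ library was above 1091 CPM, the highest NK1.1- value. Dusp1 rose by 2.07 ± 0.24 in miR-155KI (adjusted p = 0.000455) and by 1.54 ± 0.14 in WT (adjusted p = 3.64e-05).

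Zfp36, the gene of tristetraprolin (chr7:28376784-28380253, minus strand), was at 595, 824 and 675 CPM in miR-155KI NK1.1+ libraries, against 388, 426 and 384 CPM in miR-155KI NK1.1- libraries. In WT it was at 670, 811 and 469 CPM in NK1.1+ libraries, against 349, 438 and 397 CPM in NK1.1- libraries. WT NK1.1+ replicate 3 was only a little above the highest WT NK1.1- library. It rose by 0.77 ± 0.12 in miR-155KI (adjusted p = 0.00325) and by 0.69 ± 0.19 in WT (adjusted p = 0.0278). The WT call was lost without WT NK1.1- replicate 1 or 3 (adjusted p = 0.110 and 0.106) or WT NK1.1+ replicate 1 or 2 (adjusted p = 0.0630 and 0.109).

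Ier2, a small nuclear immediate early protein (chr8:84661331-84662852, minus strand, 1 exon), was at 651, 1172 and 891 CPM in miR-155KI NK1.1+ libraries, against 448, 494 and 413 CPM in miR-155KI NK1.1- libraries. WT libraries held 855, 1221 and 1045 CPM in NK1.1+, against 438, 742 and 753 CPM in NK1.1-. WT NK1.1- replicate 1 lay at the level of the miR-155KI NK1.1- libraries. Ier2 rose by 0.96 ± 0.18 in miR-155KI (adjusted p = 0.00647), and the WT value was 0.67 ± 0.22 (adjusted p = 0.0603).

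**Figure D2:**
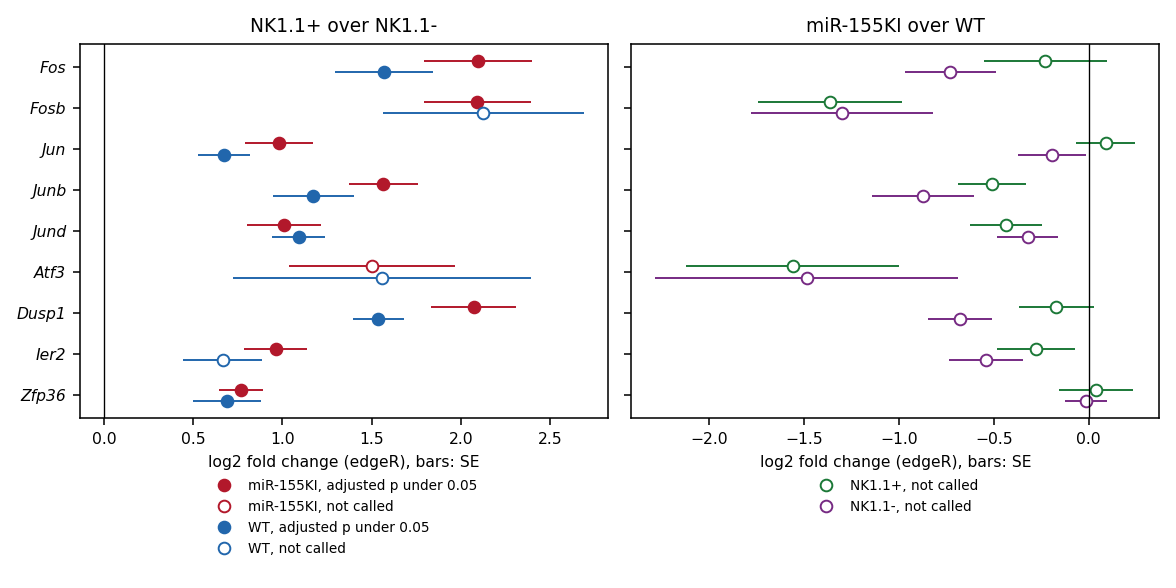
Log2 fold change (horizontal axis, with bars for the standard error) of the 9 genes, NK1.1+ over NK1.1- in each genotype at the left and miR-155KI over WT in each pool at the right, with filled circles for an edgeR adjusted p under 0.05. The left panel has filled circles for 8 genes in miR-155KI and 6 in WT, and the right panel has none.

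Libraries with the same replicate number deviated together between the pools over 8642 genes, though only weakly in miR-155KI. In WT, NK1.1+ replicate 3 went with NK1.1- replicate 2 (r = 0.276) slightly more than with NK1.1- replicate 3 (r = 0.230). The numbers are thus not shown to pair WT replicates 2 and 3. With that limit, the ratio of the pools can also be read within a number. NK1.1+ was above NK1.1- in all 54 of these ratios, which ran between 1.18 (Zfp36, WT number 3) and 5.21 (Fos, miR-155KI number 2). The ratios of Fosb were close to each other, at 3.84, 5.10 and 3.84 in miR-155KI and 4.61, 4.0 and 5.20 in WT, although its levels were not. Those of Atf3 were 3.35, 2.31 and 4.50 in miR-155KI and 2.59, 2.90 and 3.28 in WT. For Fos, WT number 1 stood apart with 4.50 from numbers 2 and 3 with 2.38 and 2.49, and for Dusp1 WT number 1 was likewise at 4.17 with the others at 2.56 and 2.48. With the replicate number as a block, edgeR called all 9 genes higher in NK1.1+ cells in both genotypes. That fit called 7.6% of all tested genes higher in miR-155KI and 14.7% in WT. Under the block, which takes the numbers as pairs, Fosb and Atf3 in WT had adjusted p = 8.36e-09 and 5.19e-07. With number 1 left out of both pools, 8 genes were called in miR-155KI and 8 in WT, where Zfp36 was the exception (adjusted p = 0.116), while 4.57% of all tested genes were called higher in miR-155KI and 10.5% in WT.

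Markers of other cell types also differed between the pools in miR-155KI. The macrophage markers were at 360 to 1105 CPM in miR-155KI NK1.1+ and 148 to 198 CPM in miR-155KI NK1.1- libraries, and 6 granulocyte markers at 15.8 to 418 CPM in NK1.1+ (highest in replicate 1) and 7.0 to 15.96 CPM in NK1.1-, ranges that just overlap. Summed levels of 9 B cell markers were 292 to 390 CPM in miR-155KI NK1.1+ and 125 to 227 CPM in miR-155KI NK1.1- libraries. Ighm was the largest part of these sums, with means of 260 and 86.1 CPM. For 6 markers of double-positive thymocytes and 5 of erythroid cells the groups overlapped, but miR-155KI NK1.1+ replicate 1 held 166 CPM of the thymocyte markers, with at most 28.5 CPM in miR-155KI NK1.1-, and miR-155KI NK1.1+ replicate 3 held 1243 CPM of the erythroid markers, with at most 310 CPM in miR-155KI NK1.1-. In WT the macrophage, granulocyte and B cell markers overlapped between the pools, at 140 to 178, 6.67 to 14.4 and 233 to 304 CPM in NK1.1+ and 129 to 265, 7.52 to 9.18 and 147 to 373 CPM in NK1.1- libraries. The summed level of 6 stromal and endothelial markers was lower in NK1.1+ libraries of both genotypes. It was 49.0 to 81.9 CPM in miR-155KI NK1.1+ and 125 to 158 CPM in miR-155KI NK1.1-. In WT it was 45.98 to 52.5 CPM in NK1.1+ and 109 to 120 CPM in NK1.1-. Pecam1 made up most of these sums. Its means were 134 and 108 CPM in miR-155KI and WT NK1.1- libraries, against 50.5 and 41.0 CPM in NK1.1+ libraries. Means of Col1a1 and Epcam were higher in NK1.1+ in both genotypes, at most 5.36 CPM. No marker of these lists was at 0 throughout a group. With miR-155KI NK1.1+ replicate 1, 2 or 3 left out, edgeR called 8 of the 9 genes higher in miR-155KI each time, where 9.63%, 7.28% and 6.33% of all tested genes were called higher, and the median of the 9 was 1.62, 1.17 and 1.56. The other libraries of the group also held these markers, and their part in the pool difference was not tested.

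**Figure D3:**
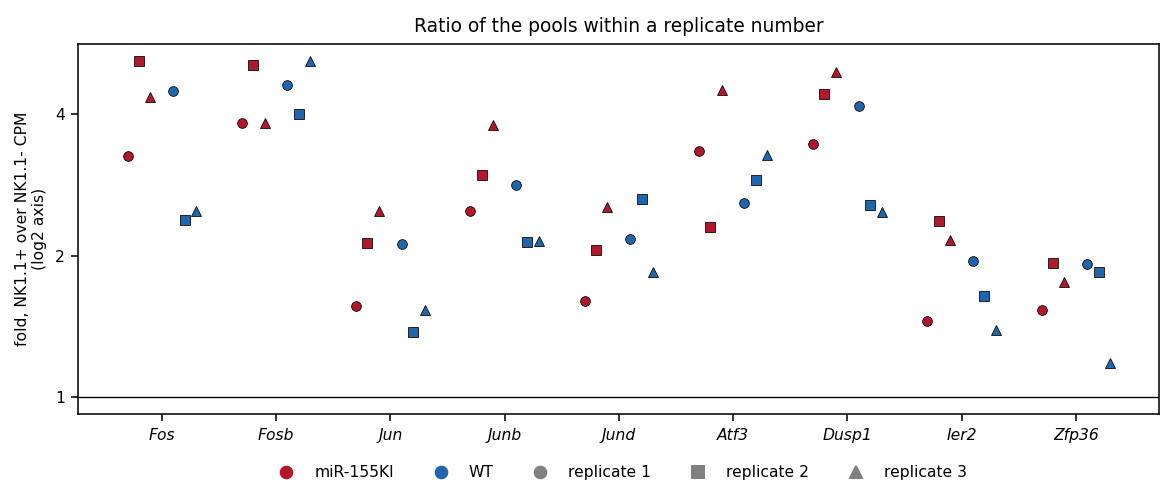
Ratio of NK1.1+ to NK1.1- CPM (vertical axis, log2 scale) between libraries of the same replicate number, for each of the 9 genes, with miR-155KI left of WT and symbols for the number. All 54 points lie above 1, and those of Fosb lie between 3.84 and 5.10 in miR-155KI and between 4.0 and 5.20 in WT.

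Between genotypes in NK1.1- cells, the fitted values of the 9 genes were all on the lower side in miR-155KI, but none passed the threshold. The median log2 fold change, miR-155KI over WT, was -0.68 over the 9 genes and -0.00 over all genes, and all 9 values were below 0. edgeR called 0 of the 9 at an adjusted p under 0.05, where 1.5% of 13304 tested genes were called lower and 1.93% higher. At an unadjusted p under 0.05 there were 5 (Fos, Fosb, Junb, Dusp1 and Ier2), with 2457 such genes in all. Dusp1 came nearest, at 625 ± 141 CPM in miR-155KI, against 980 ± 148 CPM in WT (n = 3 each, SD), which is a log2 fold change of -0.68 ± 0.17 (SE; adjusted p = 0.0606). Fos was at 195 ± 50.9 CPM in miR-155KI, against 316 ± 74.4 CPM in WT, with a log2 fold change of -0.73 ± 0.24 (SE; adjusted p = 0.168). For Junb these values were 1228 ± 272 CPM in miR-155KI, against 2202 ± 641 CPM in WT, and -0.87 ± 0.27 (SE; adjusted p = 0.159). Atf3 and Fosb had the lowest values, -1.49 ± 0.80 and -1.30 ± 0.48, with the widest errors (adjusted p = 0.428 and 0.256). Zfp36 differed by -0.01 ± 0.11 and Jun by -0.19 ± 0.18. Every miR-155KI library was below every WT library for Fos, Fosb and Dusp1, which is 3 of 9 genes against 9.22% of all tested genes.

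These counts depended on the method and on single libraries. DESeq2 called 4 of the 9 genes lower (Fos, Junb, Dusp1 and Ier2), where it called 3.6% of all genes it tested lower. Its median over all genes fitted, with the lowest counts included, was -0.15. edgeR with no filter on low counts had a median of -0.12. Without WT NK1.1- replicate 1, edgeR called 3 (Junb, Dusp1 and Ier2), where 3.97% of tested genes were called lower, and without miR-155KI NK1.1- replicate 2 it called 2 (Fos and Dusp1), where 0.998% were called lower. WT NK1.1- replicate 1 is the WT library of that pool with low Xist, and it was below the mean of its group for all 9 genes. It also had the lowest total count of its group. Its sums of macrophage (265 CPM), B cell (373 CPM) and double-positive thymocyte markers (40.2 CPM) were the highest of the group. Which of these traits goes with its low values was not tested. With this library as the only control the median over the 9 genes was -0.24, with 3 genes (Jun, Ier2 and Zfp36) above 0. With the ratio of Y-linked to Xist RNA as a covariate the median was also -0.24. This is not a separate check, since WT NK1.1- replicate 1 is the only WT library of the pool with a ratio like that of miR-155KI.

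In NK1.1+ cells the fitted values were again mostly below 0, with a median of -0.28 over the 9 genes and 0.02 over all genes. edgeR called 0 of 9, where it called 0.0231% of 12991 genes higher and 0.0% lower, and the 4 genes with an unadjusted p under 0.05 (Fosb, Junb, Jund and Atf3) stood among 1539 in all. Fosb was at 150 ± 68.6 CPM in miR-155KI NK1.1+ and 364 ± 154 CPM in WT NK1.1+ libraries, a log2 fold change of -1.36 ± 0.38 (SE; adjusted p = 0.272). Atf3 was at 38.0 ± 14.5 CPM in miR-155KI, against 105 ± 65.0 CPM in WT, a log2 fold change of -1.56 ± 0.56 (SE; adjusted p = 0.352). It was called without WT NK1.1+ replicate 1 (adjusted p = 0.0158), where 0.799% of tested genes were called lower, and stood at 0.12 with that library as the only control. For Jund alone every miR-155KI library lay below every WT library, against 7.3% of tested genes, and its value was -0.44 ± 0.19 (SE; adjusted p = 0.401). Fos, Dusp1 and Ier2 were at -0.23 ± 0.32, -0.17 ± 0.20 and -0.28 ± 0.20, and Jun and Zfp36 at 0.09 ± 0.16 and 0.04 ± 0.20. DESeq2 called Fosb alone (adjusted p = 0.00568), where 1.06% of the genes it tested were called lower. Its median over all genes fitted, with the lowest counts included, was -0.18, and that of edgeR with no filter was -0.17. Replicate 2 of miR-155KI NK1.1+ was the library with the most macrophage marker RNA and the highest level of all 9 genes in its group. Without it all 9 values were below 0 and their median was -0.54. Replicate 1 of that group had the most granulocyte marker RNA and was below the group mean for all 9 genes. Without replicate 1, 4 values were above 0 and the median of the 9 was -0.08.

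The difference of the genotype effect between the pools, tested as an interaction over the 12 libraries, was called for 0 of 9 genes, where 0.00694% of 14401 genes were called higher and 0.0208% lower. At an unadjusted p under 0.05 there were also 0 of the 9, with 1167 genes in all, and DESeq2 called 0. The values for Dusp1 and Fos, 0.50 ± 0.29 and 0.49 ± 0.49 (log2, SE), were the largest, followed by Junb at 0.36 ± 0.32 and Jun at 0.28 ± 0.24. Atf3 was at -0.08 with an error of 1.03.

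Spread between libraries of the same group was larger for most of these genes than for most other genes. The within-group SD of log2 CPM, over 8 degrees of freedom, ran between 0.25 (Zfp36) and 0.96 (Atf3), with a median of 0.23 over the 8642 genes averaging 10 CPM or more. Atf3, Fosb (0.61) and Fos (0.49) were above 99.4%, 96.4% and 92.4% of those genes. Among the 500 genes nearest in level, the share with a smaller SD was at least 94.2% for Fos, Fosb, Junb, Atf3, Dusp1 and Ier2, and it was 89.8% for Jun, 86.8% for Zfp36 and 79% for Jund. These are descriptions of 12 libraries, with no test.

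**Figure D4:**
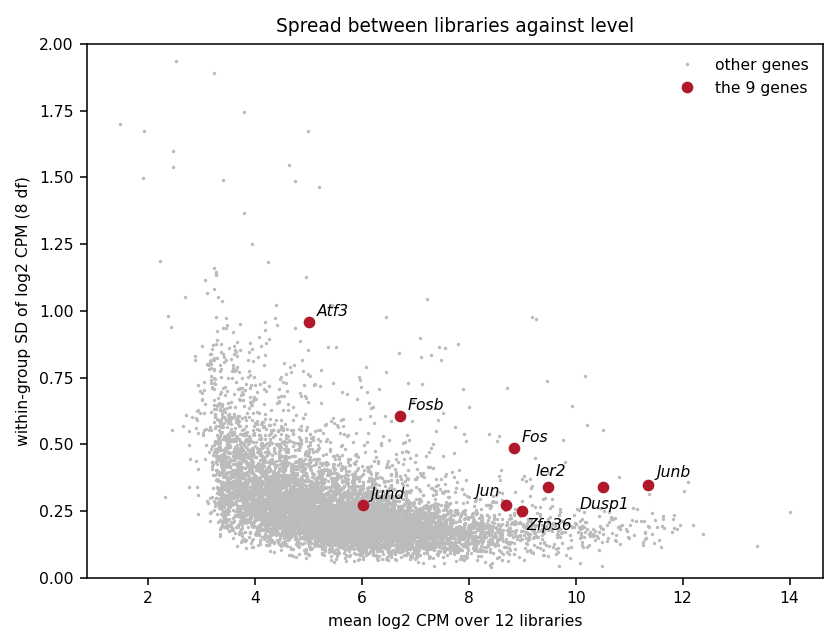
Within-group SD of log2 CPM (vertical axis, 8 degrees of freedom) against mean log2 CPM (horizontal axis) over the 12 libraries, for the 9 genes in red and other genes averaging 10 CPM or more in grey, with 10 genes above 2 outside the plot. Atf3 at 0.96, Fosb at 0.61 and Fos at 0.49 lie near the top of the genes of their level.

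The genes shared much of this spread. Averaged over the 9 genes, replicate 2 was the highest library in each of the 4 groups, by 0.45 in miR-155KI NK1.1+, 0.25 in WT NK1.1+, 0.37 in miR-155KI NK1.1- and 0.33 in WT NK1.1- on the log2 scale relative to the group mean. It was above its group mean for 9, 8, 9 and 8 of the 9 genes in that order of groups. In 3 libraries all 9 genes were below their group mean, namely replicate 1 of miR-155KI NK1.1+ (-0.41), replicate 1 of WT NK1.1- (-0.41) and replicate 3 of miR-155KI NK1.1- (-0.23). Over the genes averaging 10 CPM or more, the median deviation of any library lay between -0.08 and 0.08. Of the 36 pairs of the 9 genes, all 36 had a positive Pearson correlation of their deviations over the 12 libraries, between 0.214 and 0.946 with a median of 0.614. Junb (median r with the other 8 of 0.703), Jun and Ier2 were the most typical and Jund (0.408) the least. In WT NK1.1+ the members parted: replicate 1 was 0.49 above the group mean for Fos and 0.22 above for Dusp1, but its deviation was -0.64 for Fosb and -1.32 for Atf3. The points share libraries and depth, so no p is given.

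**Figure D5:**
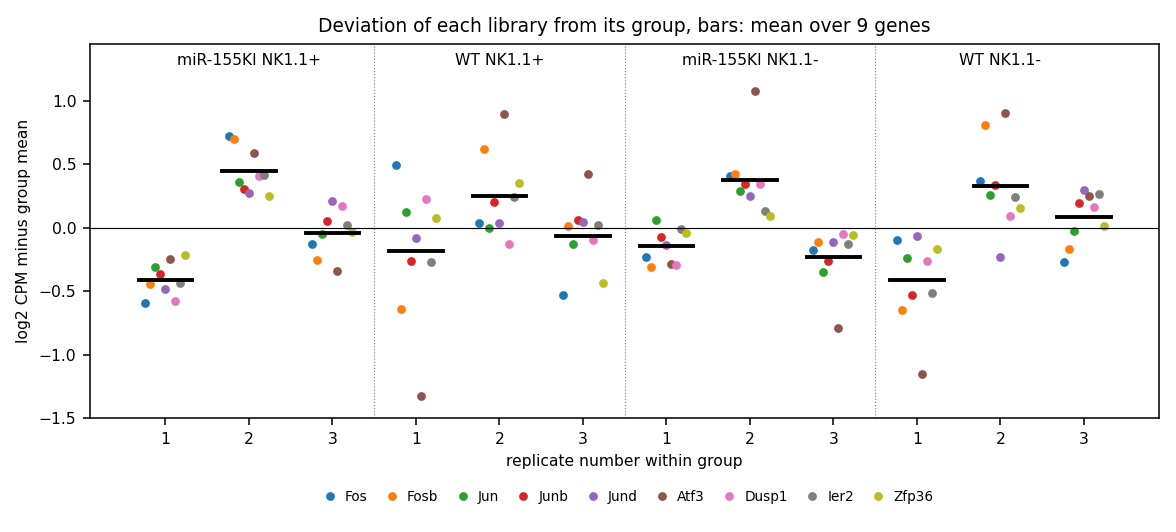
Log2 CPM of each gene minus its group mean (vertical axis) in the 12 libraries, by group and replicate number, with colours for the 9 genes and black bars for their mean. Replicate 2 has the highest bar in each group, between 0.25 and 0.45.

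The 10 genes outside the list whose deviations over the 12 libraries were most like the mean of the 9 had Pearson r between 0.889 and 0.947 and Spearman rho between 0.825 and 0.972. The first was Ppp1r15a (r = 0.947), itself a stress-induced gene whose product restarts translation by dephosphorylating eIF2α. It was followed by Gem (0.944), which encodes a small GTPase, Prdx6 (0.933), a peroxiredoxin, and the sphingosine phosphate receptor S1pr2 (0.932). The others were the chaperone Calr (0.912), Smim3 (0.908), the G protein regulator Rgs2 (0.907), the ubiquitin-conjugating enzyme Ube2h (0.901), the co-chaperone Dnajb1 (0.901) and the chaperone Hspa8 (0.889). Gem and Rgs2 also had group means ordered as most of the 9 genes, with 236 and 761 CPM in miR-155KI NK1.1+ and 307 and 975 CPM in WT NK1.1+, against 72.8 and 339 CPM in miR-155KI NK1.1- and 116 and 438 CPM in WT NK1.1- libraries. Calr differed by little between groups, with means between 469 and 508 CPM.

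Other genes of the pathway were counted from lists, and these counts stand beside the shares of all genes called, 7.92% higher and 6.15% lower between the pools in miR-155KI, 9.89% and 10.9% in WT, and 1.93% and 1.5% between the genotypes in NK1.1- cells. Of 34 tested further immediate early genes, edgeR called 18 higher and 0 lower in NK1.1+ cells of miR-155KI mice (median log2 fold change 0.81, 34 of 34 above 0) and 11 higher and 0 lower in WT (median 0.76, 31 above 0). Tsc22d3, a glucocorticoid-induced inhibitor of AP-1 and NF-κB, had the smallest p in WT, with 106 ± 35.2 CPM in NK1.1+ and 17.3 ± 1.62 CPM in NK1.1- libraries (n = 3 each, SD; log2 value 2.58, adjusted p = 2.17e-05). The antiproliferative genes Btg2 and Btg1 and the zinc finger gene Klf6 followed, at 1.17, 0.96 and 1.23. Between genotypes in NK1.1- cells, 2 of the 34 fell and 0 rose (median -0.73, 30 below 0). These were Tsc22d3, with 9.80 ± 1.63 CPM in miR-155KI, against 17.3 ± 1.62 CPM in WT (log2 fold change -0.85, adjusted p = 0.0367), and Btg1 (-0.49, adjusted p = 0.0443). The count moved with single libraries of both genotypes. Without WT NK1.1- replicate 1 it was 15 lower (median -0.90), where 3.97% of all tested genes were called lower, and leaving out other libraries in turn gave between 0 and 3. With WT NK1.1- replicate 1 as the only control, an arm of 1 library, the median of the 34 was -0.18. Tsc22d3 and Btg1 both lost their calls without WT NK1.1- replicate 2 or 3 or miR-155KI NK1.1- replicate 1 or 3, with adjusted p between 0.106 and 0.211 by edgeR. With the ratio of Y-linked to Xist RNA as a covariate, edgeR called neither (adjusted p = 0.350 and 0.520), and the median of the 34 was -0.21. This covariate also sets miR-155KI mainly against WT NK1.1- replicate 1. In NK1.1+ cells 0 of the 34 were called, with a median of -0.50.

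Of the other AP-1 dimer genes (Fosl, Batf, Jdp2, Atf and Creb genes), 8 of 12 were tested in most comparisons and edgeR called 0 between the pools in WT, 2 of 7 higher in NK1.1+ cells of miR-155KI mice and 0 between the genotypes in either pool. Fosl2, a Fos-related gene, was at 210 ± 99.0 CPM in WT NK1.1+ and 65.6 ± 25.8 CPM in WT NK1.1- libraries (log2 fold change 1.65, adjusted p = 0.108). Among 9 DUSP phosphatases other than Dusp1, 4 rose in NK1.1+ cells of WT, namely Dusp6, Dusp2, Dusp5 and Dusp7 (log2 fold changes 0.82, 0.68, 1.18 and 0.92). In miR-155KI 3 of 8 rose and 1 fell. Dusp5, a nuclear ERK phosphatase, was the 1 DUSP gene that fell in miR-155KI NK1.1- cells, with 44.0 ± 12.6 CPM in miR-155KI, against 95.7 ± 23.9 CPM in WT (n = 3 each, SD; log2 value -1.15, adjusted p = 0.0495). Without WT NK1.1- replicate 1 the list had 4 lower, where 3.97% of all tested genes were called lower. With that library as the only control Dusp5 was at -0.66 and the median of the list at 0.12. The Dusp5 call was lost without WT NK1.1- replicate 2 or 3 or miR-155KI NK1.1- replicate 1 or 3 (adjusted p between 0.135 and 0.194).

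The EGR and NR4A genes, immediate early genes of T cell receptor signalling, were listed separately. Of 7 tested, edgeR called 1 higher and 2 lower in NK1.1+ cells of miR-155KI mice and 0 higher and 1 lower in WT. Egr2 was that 1 gene in WT (28.1 ± 5.04 CPM in NK1.1+ and 43.5 ± 11.7 CPM in NK1.1- libraries, log2 fold change -0.67, adjusted p = 0.0422), and it was also the 1 gene of the list that rose in miR-155KI NK1.1- cells (71.5 ± 3.93 CPM in miR-155KI, against 43.5 ± 11.7 CPM in WT, adjusted p = 0.0387). That rise was not called when any library other than WT NK1.1- replicate 1 was left out (adjusted p between 0.0982 and 0.170). Nor was it called with the covariate of sex-linked RNA (log2 fold change 0.33, edgeR adjusted p = 0.536), which sets miR-155KI mainly against WT NK1.1- replicate 1. Nr4a1 was at 204 ± 50.5 CPM in miR-155KI NK1.1- and 610 ± 287 CPM in WT NK1.1- libraries (log2 fold change -1.62, adjusted p = 0.185).

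Upstream of AP-1, 28 of 29 genes of MAP kinases, their activators and promoter factors were tested, with 14 values above 0 and 14 below 0 between the pools in WT and 9 above and 19 below in miR-155KI. In WT NK1.1+ cells 3 of 28 rose, beside 9.89% of all tested genes (Mef2a, Braf and Mapk14, with log2 fold changes of 0.69, 0.75 and 0.49). Beside 10.9% of all genes 1 of 28 fell, Mapk11, which encodes p38β (5.46 ± 0.441 CPM in NK1.1+ and 35.5 ± 7.74 CPM in NK1.1- libraries, log2 fold change -2.73, adjusted p = 1.03e-05). In miR-155KI 1 rose and 5 fell. Between genotypes in NK1.1- cells, Map3k5, the stress kinase ASK1, rose (24.9 ± 3.15 CPM in the miR-155KI and 12.95 ± 1.37 CPM in the WT libraries, log2 fold change 0.91, adjusted p = 0.0120). Mef2a fell (25.4 ± 1.03 CPM in miR-155KI, against 41.8 ± 4.95 CPM in WT, log2 fold change -0.75, adjusted p = 0.0157). Mef2a, like Fos, is on the study's list of predicted targets drawn up on these NK1.1- libraries, so its fall is not independent evidence. Map3k5 lost its call without WT NK1.1- replicate 2 or 3 or miR-155KI NK1.1- replicate 2 (adjusted p between 0.0611 and 0.0661), and Mef2a without WT NK1.1- replicate 2 or miR-155KI NK1.1- replicate 1 (adjusted p = 0.0814 and 0.0717). With the covariate of sex-linked RNA, which sets miR-155KI mainly against WT NK1.1- replicate 1, edgeR called neither. Map3k5 was then at 0.75 (adjusted p = 0.268) and Mef2a at -0.63 (adjusted p = 0.244). Of 4 genes of factors that bind DNA with AP-1 (Nfatc1, Nfatc2, Nfatc3 and Irf4), Nfatc2 alone was called in WT, with 180 ± 29.1 CPM in NK1.1+ and 107 ± 8.25 CPM in NK1.1- libraries (log2 fold change 0.72, adjusted p = 0.00392).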

How the data were processed

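RNA was sequenced in 12 libraries of sorted thymic iNKT cells, 3 per group, grouped by genotype and NK1.1 as the labels give them. The authors gave a deposited table of counts, in whole numbers for each gene and library, and a second table named CPM. The second is a signal in which the deposited counts are multiplied by 1 factor per library. The submitters' processing notes name bcl2fastq 2.17.1.14 and GRCm38/mm10, and the aligner, the counter and the use of strand are not given in the sources used here. Without strand, reads of Jun, Junb, Jund and Zfp36 cannot be told apart from those of genes on the opposite strand (Junos, Prdx2, Gm11175 and Gm44710), and Dusp1 overlaps Ergic1. The labels name the SMART-Seq v4 kit, while the study's methods name another.

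Counts were tested with edgeR 4.0.16 (R 4.3.3; TMM scaling, filterByExpr, robust quasi-likelihood fit of the 2 groups compared, or of all 12 libraries for the interaction), and p-values were adjusted over all tested genes with a threshold of 0.05. CPM are TMM scaled over 12 libraries. Alternatives used DESeq2 1.42.0, limma 3.58.1, other scalings, filters and pseudocounts (log2 of the deposited CPM + 1 or + 0.1), a replicate block, a covariate of sex-linked RNA and each library left out. In the genotype comparisons that covariate sets miR-155KI mainly against WT replicate 1, the WT library of each pool with low Xist. Scripts were tested on simulated data. All 9 genes were named. From other lists, up to 4 genes with the smallest p in the NK1.1- genotype comparison and the WT pool comparison could be named. Members and lists were chosen with earlier results of these data known.

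Same-numbered libraries of the pools deviated together over 8642 genes, with r = 0.551, 0.310 and 0.230 in WT and 0.180, 0.138 and 0.117 in miR-155KI. The blocked value is given there for that reason. In WT, NK1.1+ replicate 3 had r = 0.276 with NK1.1- replicate 2, and NK1.1+ replicate 2 had r = 0.136 with NK1.1- replicate 3. Whether the numbers pair WT replicates 2 and 3 was therefore not settled. The lowest member count was 121 (Atf3), and intervals of counting error are small beside the spread between libraries. Promoters and miR-155 came from RefSeq, gene models and 3′ UTRs from GENCODE M21.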

Additional observations from a re-analysis of the deposited data

How the results depend on the processing

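In the pool comparisons all 9 genes stayed above 0 under all settings, and the count of called genes ranged between 5 and 9 in WT and between 7 and 9 in miR-155KI. The genotype comparison in NK1.1- cells called 0 genes, but 1 (Dusp1) with upper quartile factors, limma-voom or limma on log2(CPM + 1), 4 with DESeq2, no filter or a replicate block, and between 0 and 3 with a library left out. In NK1.1+ cells 1 was called with DESeq2, no filter or a replicate block (Fosb), and between 0 and 1 with a library left out. With the replicate block the 4 in NK1.1- cells were Fos, Fosb, Junb and Dusp1. Same-numbered libraries of the genotypes had r = 0.0859, 0.372 and 0.106 in NK1.1-, and -0.0534, 0.0549 and 0.0728 in NK1.1+. The values of the miR-155KI pools (0.180, 0.138 and 0.117) lay within the NK1.1- range. Whether the numbers pair the genotypes in NK1.1- cells was therefore not settled. Among 13304 genes tested in NK1.1- cells, 257 were called higher and 200 lower. Of the same number tested, these were 365 and 372 with the block, and 59 and 55 with the covariate of sex-linked RNA. DESeq2 called 505 and 455 of 12631, and edgeR with no filter 565 and 483 of 27742. The cause of these differences was not tested.

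Direction turned only in values that were not called. In NK1.1- cells Zfp36 was at 0.040 with limma on either pseudocount (0.0398 for 1 and 0.0399 for 0.1), 0.026 with no filter, 0.0058 with all 12 libraries in 1 fit, 0.16 with the covariate and 0.17 against WT replicate 1 alone, and between -0.093 and 0.090 with a library left out. Jun was at 0.016 with the covariate and 0.064 against WT replicate 1 alone, where Ier2 was at 0.016. In NK1.1+ cells Atf3 was at 0.0056 and Ier2 at 0.11 with the covariate, and at 0.12 and 0.078 against WT replicate 1 alone. With a library left out, Fos lay between -0.65 and 0.030, Dusp1 between -0.36 and 0.072, Jun between -0.088 and 0.23 and Zfp36 between -0.15 and 0.26. In the interaction Atf3 was at 0.32 with limma-voom, 0.071 and 0.12 with limma on pseudocounts of 1 and 0.1, and 0.11 with the replicate block. With a library left out it lay between -0.58 and 0.66, Fosb between -0.57 and 0.32, Jund between -0.27 and 0.11 and Zfp36 between -0.14 and 0.26. Leaving number 1 out of both pools, and the settings run on the other lists, were chosen after seeing the data. Without WT NK1.1- replicate 1, the genotype comparison in NK1.1- cells called 3.97% of all tested genes lower, against 1.5% with all libraries. It then called 2 of 8 other AP-1 dimer genes and 4 of 16 heat shock and unfolded protein genes lower. The same held for 1 of 4 genes of factors that bind DNA with AP-1 (NFAT genes and Irf4). With all libraries these lists had 0 lower. Of the other lists, 3 of 7 EGR and NR4A genes and 3 of 28 upstream genes were lower without that library.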

Other observations

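The heat shock and unfolded protein genes, which also answer to handling of cells, include Dnajb1 and Hspa8, which are named above among the 10 genes nearest to the mean of the 9 across libraries. Of 16 tested, edgeR called 1 higher and 2 lower in NK1.1+ cells of miR-155KI mice and 1 higher and 3 lower in WT. The gene that rose in WT was Dnajb1, with 503 ± 41.1 CPM in NK1.1+ and 266 ± 53.9 CPM in NK1.1- libraries (n = 3 each, SD; log2 value 0.89, adjusted p = 0.00215). The mitochondrial chaperonins Hspd1 and Hspe1 and the mTOR inhibitor gene Ddit4 fell there (log2 fold changes -0.70, -0.38 and -0.84). Between genotypes edgeR called 0 of 16 in either pool. The summed level of the 16 was highest in replicate 2 of every group, with 12578 CPM in miR-155KI NK1.1+, 12067 CPM in WT NK1.1+, 10047 CPM in miR-155KI NK1.1- and 11791 CPM in WT NK1.1-, and the other libraries lay between 8065 and 10286 CPM.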
